A study of Mus musculus with 9 samples.

Results

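Across 9 RNA-seq libraries of mouse marrow stromal cells, 38 interferon-stimulated effector genes were followed, chosen by gene symbol from the 23358 entries of the deposited count table. All 38 symbols were found, and 34 of them passed the filter on low counts, as did 13240 entries of the table. The cells were mesenchymal stem cells (MSCs), multipotent stromal cells grown from the marrow of adult C57BL/6 mice, used at passages 4 to 10 and kept in osteogenic medium until lysis on day 4 after transfection. The siBcat cultures received siRNA against beta-catenin, the product of Ctnnb1. The GSK126 cultures received non-targeting siRNA together with 5 µM GSK126, which inhibits the H3K27 methyltransferase Ezh2. The siCTL cultures received non-targeting siRNA alone, so all 3 groups were exposed to an siRNA, and each group held 3 biological replicates per the series text. The treatment label of siBcat also lists GSK126, whereas its titles, source names, columns and the series text do not, and the groups here follow the titles. Because siBcat differs from siCTL in both the siRNA used and the level of Ctnnb1, an effect of the siRNA itself and an effect of beta-catenin loss cannot be told apart.

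Type I interferons bind the Ifnar1 and Ifnar2 receptor, whose Jak1 and Tyk2 kinases phosphorylate Stat proteins, Stat2 among them. Phosphorylated Stat2 takes part with Irf9 in a complex that binds interferon-stimulated response elements, whereas interferon gamma acts on gamma-activated sequences. The genes switched on in this way encode proteins that bind viral RNA, modify host proteins or block viral entry and release, and stromal cells can mount this response.

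Library totals were between 42324200 and 55898774 counts, and every count was an even number, as when both reads of a pair are counted. The targeted Ctnnb1 had 19.1 to 19.3 CPM (counts scaled to library size by TMM) in siBcat and 854 to 879 CPM in siCTL, a 44.9-fold decrease. Of 10 marrow stromal markers, 9 passed the filter and Thy1 was at 0 in every library. Their summed level lay between 23620 and 25692 CPM in siBcat, between 33667 and 36619 CPM in GSK126 and between 26444 and 31351 CPM in siCTL. Against siCTL, Col1a2, Pdgfra and Cxcl12 passed the test described below as lower in siBcat, and in GSK126 Cxcl12 passed as higher and Pdgfra, Pdgfrb and Prrx1 as lower. Of 14 markers of macrophages and other blood cells, 13 were in the table and summed to 3.56 to 3.85 CPM in siBcat, 2.89 to 3.49 CPM in GSK126 and 2.78 to 3.23 CPM in siCTL, with the pan-leukocyte gene Ptprc at 0 in all 9 libraries. In siBcat against siCTL, Lyz2 and Cd74 of that list passed the test as higher and Cd68 as lower. The 6 endothelial markers summed to 1.66 to 2.23 CPM in siBcat, 1.47 to 2.26 CPM in GSK126 and 1.45 to 2.03 CPM in siCTL, and in siBcat against siCTL Kdr passed as higher and Vwf as lower. The part of these marker changes in the results below was not tested.

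Promoter sequence was at hand for 28 of the 38 genes, as 34 RefSeq promoters on GRCm38.p6, and the 250 bases before each start were searched for 2 short patterns on both strands. The core of the interferon-stimulated response element was spelled GAAA, any 2 bases and GAAA, which reads TTTC, any 2 bases and TTTC on the other strand. The core of the gamma-activated sequence was spelled TTCNNNGAA, which reads the same on both strands. The first pattern was present in 12 of the 28 genes (Bst2, Gbp2, Gbp3, Ifit1, Ifit3, Igtp, Irgm1, Isg15, Oas1a, Oas3, Rsad2 and Stat2) and in 12 of their 34 promoters, against 3.46% of all 27025 genes and 2.98% of all 32851 promoters of the same length. The second was present in 5 of the 28 (Bst2, Ifit2, Igtp, Irf1 and Oas1a) and in 5 of the 34 promoters, against 8.13% of all genes and 7.02% of all promoters. Genes not in the promoter table were Rtp4, Mx1, Ifi27l2a, Oas2, Parp14, Zbp1, Parp9, Iigp1, Usp18 and Mx2. A match describes the letters in this window and was not tested as a binding site.

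The next promoters are shown because they hold the first pattern and belong to genes on which the results turn: the ubiquitin-like modifier Isg15 (chr4:156200819-156201068, minus strand), the antiviral enzyme Rsad2 (chr12:26456453-26456702, minus strand), the RNA-binding protein gene Ifit3 (chr19:34583279-34583528, plus strand), the signalling gene Stat2 (chr10:128270248-128270497, plus strand) and Bst2 (chr8:71537473-71537722, minus strand), which was high in 1 siBcat library only. Each is the 250 bases that end just before the RefSeq start, written 5′ to 3′ on the strand of the gene, with matches to this pattern on either strand in capitals. Isg15 holds 3 overlapping matches, which begin 78, 72 and 66 bases before the start, and Bst2 holds 2 overlapping matches, which begin 130 and 124 bases before it. Ifit3 holds 2 separate matches, which begin 156 and 122 bases before the start, and Rsad2 and Stat2 hold 1 match each, which begin 120 and 222 bases before it.
Isg15: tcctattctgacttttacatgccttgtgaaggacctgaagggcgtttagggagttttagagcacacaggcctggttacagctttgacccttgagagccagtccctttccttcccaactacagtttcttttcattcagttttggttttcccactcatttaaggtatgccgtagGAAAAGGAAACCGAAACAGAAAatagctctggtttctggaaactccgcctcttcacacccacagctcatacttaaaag
Rsad2: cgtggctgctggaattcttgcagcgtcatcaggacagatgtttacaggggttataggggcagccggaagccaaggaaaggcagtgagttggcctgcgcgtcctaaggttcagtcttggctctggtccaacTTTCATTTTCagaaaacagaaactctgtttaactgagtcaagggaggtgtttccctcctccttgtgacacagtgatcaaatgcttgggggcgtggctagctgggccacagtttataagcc
Ifit3: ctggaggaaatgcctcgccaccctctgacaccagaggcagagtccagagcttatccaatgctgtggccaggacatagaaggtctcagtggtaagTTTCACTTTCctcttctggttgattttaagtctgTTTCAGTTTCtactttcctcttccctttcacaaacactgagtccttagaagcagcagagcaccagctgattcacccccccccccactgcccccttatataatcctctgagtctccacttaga
Stat2: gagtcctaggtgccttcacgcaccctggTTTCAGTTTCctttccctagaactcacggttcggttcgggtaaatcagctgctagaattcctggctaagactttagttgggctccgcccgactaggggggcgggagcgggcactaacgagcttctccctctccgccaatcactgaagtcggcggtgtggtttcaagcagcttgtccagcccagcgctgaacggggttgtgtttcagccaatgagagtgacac
Bst2: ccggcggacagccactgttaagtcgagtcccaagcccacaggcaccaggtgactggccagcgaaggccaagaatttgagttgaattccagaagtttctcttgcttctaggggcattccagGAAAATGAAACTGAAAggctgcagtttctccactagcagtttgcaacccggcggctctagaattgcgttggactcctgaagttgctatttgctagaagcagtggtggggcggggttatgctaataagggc

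Ifit2 (chr19:34550444-34550693, plus strand) and Irf1 (chr11:53769764-53770013, plus strand) are shown because they were the 2 members lower in siBcat than in siCTL. Neither window holds the first pattern, and the capitals mark TTCNNNGAA, which begins 241 bases before the start in Ifit2 and 90 bases before it in Irf1. Each gene has another RefSeq promoter among those searched, which holds neither pattern (chr19:34550838-34551087 for Ifit2 and chr11:53770223-53770472 for Irf1).
Ifit2: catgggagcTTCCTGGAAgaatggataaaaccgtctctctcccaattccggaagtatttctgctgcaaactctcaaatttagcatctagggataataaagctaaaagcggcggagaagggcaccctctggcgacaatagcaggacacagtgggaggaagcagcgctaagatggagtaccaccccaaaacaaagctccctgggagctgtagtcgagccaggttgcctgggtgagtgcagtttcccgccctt
Irf1: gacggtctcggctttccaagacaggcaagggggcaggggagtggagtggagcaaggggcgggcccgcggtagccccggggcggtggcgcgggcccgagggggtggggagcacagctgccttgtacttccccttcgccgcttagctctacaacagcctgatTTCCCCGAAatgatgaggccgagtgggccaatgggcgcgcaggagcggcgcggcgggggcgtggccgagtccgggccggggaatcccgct

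Depletion of beta-catenin was set against the non-targeting siRNA to ask which transcripts change with it. Of the 34 members tested, siBcat had 28 higher than siCTL, 2 lower and 4 that did not pass the threshold, by edgeR's quasi-likelihood test with Benjamini-Hochberg adjustment over all 13240 genes and a threshold of 0.05. Over all genes tested, 17.7% were higher and 17.5% were lower. Oas3, counted among the 28, passed the filter only through its siBcat libraries, so its calls as higher in siBcat are partly set by the filter. The median log2 fold change of the members was 1.27, against 0.002 over all genes, and single members ran from -0.47 for Ifit2 to 4.58 for Usp18. All 3 siBcat libraries lay above all 3 siCTL libraries in 29 of the 34 members, against 28.0% of all genes, and below them in 2 members, against 27.2% of all genes. In bulk RNA, more cells that use these genes and more RNA of them per cell cannot be told apart.

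**Figure D1:**
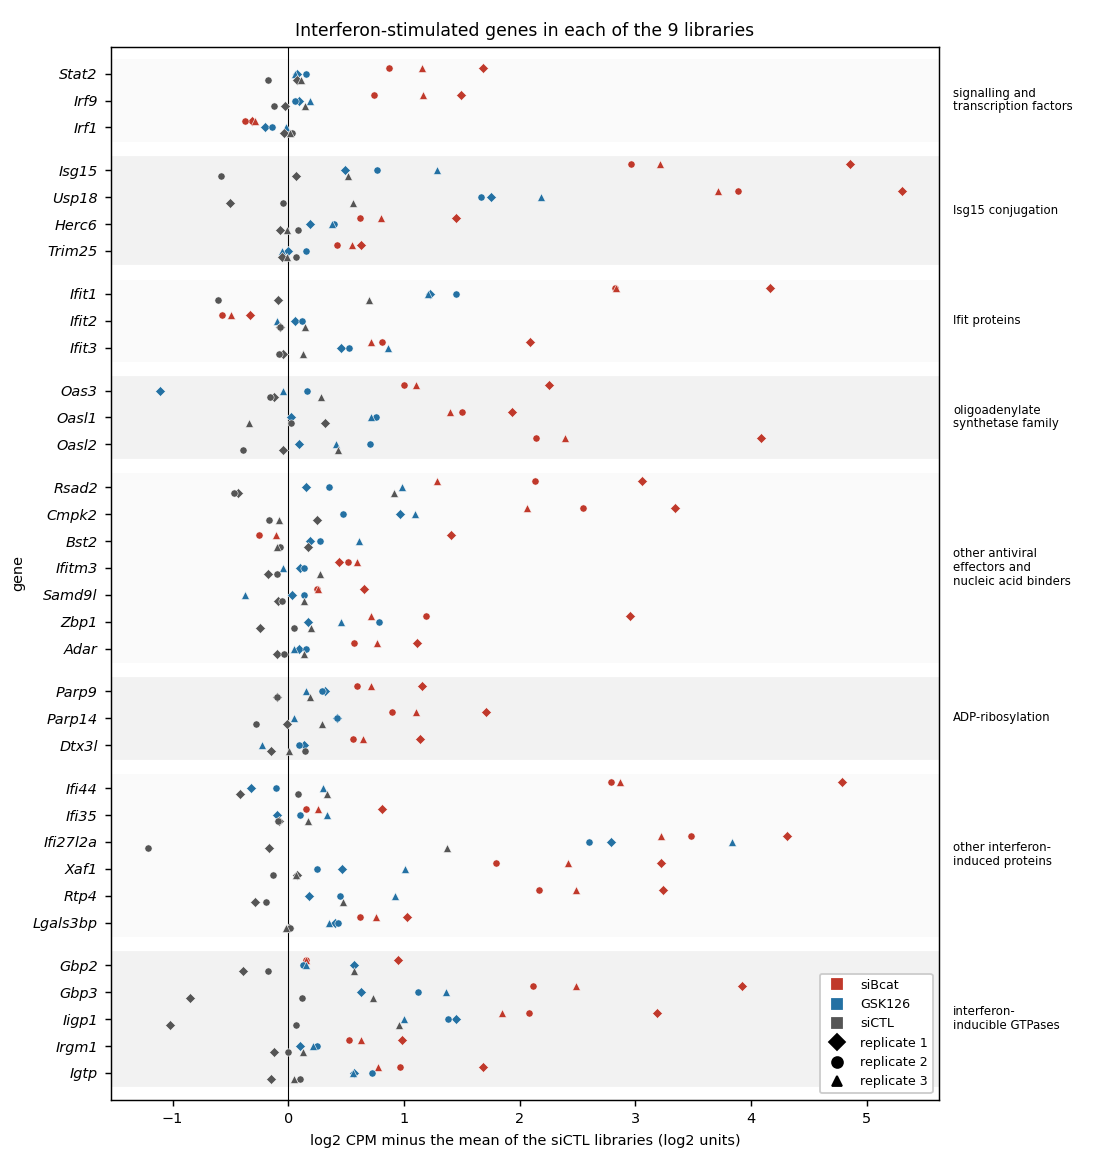
Level of each of the 34 tested members in each of the 9 libraries, as log2 CPM minus the mean of the siCTL libraries, in rows grouped by role. Colour gives the group and the symbol the replicate. The siBcat replicate 1 diamonds stand highest among the siBcat libraries in 32 rows, and only Ifit2 and Irf1 have all siBcat points left of all siCTL points.

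The 3 signalling members split in direction. Stat2, the Stat protein particular to type I and III interferon signalling (chromosome 10, 128270559 to 128292849), had 72.1, 41.0 and 49.9 CPM in siBcat replicates 1, 2 and 3, 23.6, 24.9 and 23.3 CPM in GSK126 and 23.6, 19.8 and 24.1 CPM in siCTL. Its DNA-binding partner Irf9 (chromosome 14, 55603571 to 55610030) had 50.8, 30.0 and 40.4 CPM in siBcat, 19.2, 18.8 and 20.5 CPM in GSK126 and 17.7, 16.5 and 19.9 CPM in siCTL. For both genes every siBcat library was above every library of the other groups, and GSK126 and siCTL overlapped. Stat2 rose by 1.27 on the log2 scale in siBcat (standard error, SE, 0.18, adjusted p = 0.000516, edgeR) and Irf9 by 1.16 (SE 0.16, adjusted p = 0.000347, edgeR). Irf1, a transcription factor induced chiefly by interferon gamma (chromosome 11, 53770014 to 53778374), had 29.8, 28.6 and 30.4 CPM in siBcat, 32.2, 33.7 and 36.5 CPM in GSK126 and 36.1, 37.8 and 37.3 CPM in siCTL. All siBcat libraries were below all siCTL libraries, and Irf1 was lower in siBcat by a log2 fold change of -0.33 (SE 0.06, adjusted p = 0.00129, edgeR). That call was the same under all 17 alternative settings, with adjusted p from 2.18e-05 to 0.0105 (edgeR and DESeq2).

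The 4 genes of Isg15 conjugation were all higher in siBcat. Isg15, a small ubiquitin-like protein that is joined to other proteins (chromosome 4, 156199424 to 156200818), had 43.7, 11.7 and 14.0 CPM in siBcat, 2.08, 2.53 and 3.65 CPM in GSK126 and 1.54, 0.970 and 2.12 CPM in siCTL. Usp18, the protease that removes Isg15 and also restrains the type I interferon receptor (chromosome 6, 121245906 to 121270917), had 12.5, 4.66 and 4.11 CPM in siBcat, 1.02, 0.965 and 1.40 CPM in GSK126 and 0.181, 0.264 and 0.424 CPM in siCTL. Both were highest in siBcat replicate 1, and replicates 2 and 3 were still above every other library. The log2 fold change in siBcat was 3.89 for Isg15 (SE 0.61, adjusted p = 0.00161, edgeR) and 4.58 for Usp18 (SE 0.55, adjusted p = 0.000188, edgeR). Herc6, the ligase that attaches Isg15 in mouse cells, rose by 1.00 (SE 0.19), and Trim25, a ubiquitin ligase that acts on the RNA sensor Ddx58, rose by 0.53 (SE 0.07). Without siBcat replicate 1 the log2 fold changes were 3.04 for Isg15, 3.89 for Usp18, 0.70 for Herc6 and 0.48 for Trim25, all still past the threshold.

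Ifit proteins bind foreign RNA and hold back its translation, and their genes lie side by side on chromosome 19. Ifit2 (34550694 to 34576419), Ifit3 (34583531 to 34588731) and Ifit1 (34640871 to 34650009) did not move together. Ifit1 had 33.7, 13.3 and 13.3 CPM in siBcat, 4.35, 5.10 and 4.31 CPM in GSK126 and 1.72, 1.19 and 3.01 CPM in siCTL, with no overlap between any 2 groups. Ifit3 had 23.5, 9.67 and 9.06 CPM in siBcat, 7.56, 7.95 and 10.1 CPM in GSK126 and 5.34, 5.20 and 6.03 CPM in siCTL. Here siBcat replicates 2 and 3 lay within the range of GSK126 but above all siCTL libraries. Ifit2 had 41.3, 35.1 and 36.9 CPM in siBcat, 54.3, 56.7 and 48.9 CPM in GSK126 and 49.6, 49.7 and 57.5 CPM in siCTL, so that every siBcat library was below every other library.

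Against siCTL the log2 fold change in siBcat was 3.33 for Ifit1 (SE 0.46, adjusted p = 0.000608, edgeR), 1.34 for Ifit3 (SE 0.34, adjusted p = 0.0140, edgeR) and -0.47 for Ifit2 (SE 0.08, adjusted p = 0.000797, edgeR). The Ifit2 call was the same under all 17 alternatives, with adjusted p from 5.1e-06 to 0.00782 (edgeR and DESeq2). Without siBcat replicate 1 the Ifit3 value was 0.75, and its call ended without GSK126 replicate 3 (adjusted p = 0.0572), with no filter (0.0589) and with only the 2 groups compared in the edgeR fit (0.0944). Of the 50-base stretches in annotated Ifit3 transcripts, 51.2% also occur in the neighbouring copy Ifit3b, so its count is uncertain.

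The oligoadenylate synthetase family senses double-stranded RNA, and its active enzymes make short oligoadenylates. All 3 family members that passed the filter were higher in siBcat, but Oas3 passed it only through its siBcat libraries, so the filter partly set its call. Oasl2 (chromosome 5, 114896936 to 114912234) had 41.1, 10.6 and 12.7 CPM in siBcat, 2.54, 3.90 and 3.18 CPM in GSK126 and 2.31, 1.81 and 3.23 CPM in siCTL, with siBcat replicate 1 far above the other libraries and replicates 2 and 3 above all of GSK126 and siCTL. Its log2 fold change was 3.12 (SE 0.57, adjusted p = 0.00357, edgeR). Oasl1, which in mouse limits Irf7 translation, rose by 1.80 (SE 0.40) from a low level, with 0.525 to 0.779 CPM in siBcat and 0.127 to 0.226 CPM in siCTL. Oas3 rose by 1.71 (SE 0.49, adjusted p = 0.0162, edgeR), with 1.12, 0.445 and 0.481 CPM in siBcat, 0.0707, 0.230 and 0.194 CPM in GSK126 and 0.181, 0.176 and 0.255 CPM in siCTL. The Oas3 call ended without siBcat replicate 1 (adjusted p = 0.0981), siCTL replicate 1 (0.0565) or siCTL replicate 2 (0.0641) in edgeR.

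Oas1a and Oas2, with the Mx family genes Mx1 and Mx2, did not pass the filter. Mx2 is annotated as a polymorphic pseudogene. Oas2 had 38, 22 and 10 counts in siBcat, 0, 0 and 2 counts in GSK126 and 0, 2 and 2 counts in siCTL, and Oas1a had 28, 10 and 0 counts in siBcat, 2, 0 and 0 counts in GSK126 and 0, 2 and 0 counts in siCTL. Mx2 had 16, 4 and 0 counts in siBcat, 2, 0 and 0 counts in GSK126 and 0 counts in every siCTL library, and Mx1 had 6, 4 and 0 counts in siBcat and 0 counts in all GSK126 and siCTL libraries. For all 4 genes siBcat replicate 1 held the most counts, and only Oas2 had every siBcat library above every other. A count of 0 allows up to 6 deposited counts (3 read pairs), which is 0.106 to 0.146 CPM here, and covers counting error only. When no filter was used, Oas1a, Oas2 and Mx2 were past the threshold in siBcat against siCTL and Mx1 was not. Of the 50-base stretches of Oas1a, 57.6% also occur in Oas1g, so its count is uncertain.

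Of 7 other antiviral effectors and nucleic acid binders that passed the filter, 5 were higher in siBcat. Zbp1, a sensor of Z-form nucleic acid that can start necroptosis (chromosome 2, 173206612 to 173218923), had 6.57, 1.90 and 1.36 CPM in siBcat, 0.919, 1.42 and 1.13 CPM in GSK126 and 0.679, 0.837 and 0.934 CPM in siCTL. Only siBcat replicate 1 stood well apart, though replicates 2 and 3 were also above all siCTL libraries. The log2 fold change of Zbp1 was 1.98 (SE 0.57, adjusted p = 0.0226, edgeR) with all libraries and 0.99 without siBcat replicate 1 (adjusted p = 0.0201, edgeR). The Zbp1 call ended without siCTL replicate 1, 2 or 3 (adjusted p = 0.0693, 0.0591 and 0.0580), without GSK126 replicate 3 (0.0813), with no filter (0.0753) and with only the 2 groups compared (0.120), all in edgeR.

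Rsad2, known as viperin, makes a chain-terminating nucleotide from CTP, and Cmpk2, its neighbour on chromosome 12, phosphorylates nucleotides. Cmpk2 rose by 2.83 (SE 0.34, adjusted p = 4.34e-05, edgeR), with 2.01 to 4.97 CPM in siBcat and 0.397 to 0.543 CPM in siCTL. Rsad2 rose by 2.23 (SE 0.52, adjusted p = 0.00765, edgeR), with 1.44 to 5.02 CPM in siBcat and 0.397 to 1.10 CPM in siCTL. Adar, which edits adenosine to inosine in double-stranded RNA, rose by 0.83 (SE 0.12), and Ifitm3, a membrane protein that blocks viral fusion, rose by 0.50 (SE 0.10). Samd9l, a poxvirus restriction factor, had a log2 fold change of 0.39 (SE 0.15, adjusted p = 0.0603) and did not pass the edgeR threshold, but it passed in DESeq2 (adjusted p = 0.0146). Rsad2 and Ifitm3 lost their calls when only the 2 groups compared were fitted (adjusted p = 0.0577 and 0.0538, edgeR).

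Bst2, known as tetherin, holds budding virus at the cell surface (chromosome 8, 71534255 to 71537456), and it was singled out after its values were seen. It had 44.8, 14.2 and 15.7 CPM in siBcat, 19.2, 20.4 and 25.8 CPM in GSK126 and 19.0, 16.1 and 15.7 CPM in siCTL. Replicate 1 was the highest of all 9 libraries, whereas replicates 2 and 3 were below every GSK126 and every siCTL library, the lowest siCTL level being 15.74 CPM beside 15.67 CPM in replicate 3. The log2 fold change of siBcat against siCTL was 0.55 (SE 0.42, adjusted p = 0.354, edgeR), and without siBcat replicate 1 it was -0.19 (adjusted p = 0.309, edgeR). Against GSK126 the value was 0.18 with all libraries (adjusted p = 0.758, edgeR) and -0.55 without siBcat replicate 1 (adjusted p = 0.00782, edgeR).

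Genes of ADP-ribosylation, the transfer of ADP-ribose to proteins, were all higher in siBcat. Parp14, which adds single ADP-ribose units (chromosome 16, 35832874 to 35871544), had 30.8, 17.5 and 20.2 CPM in siBcat, 12.6, 12.5 and 9.70 CPM in GSK126 and 9.32, 7.71 and 11.5 CPM in siCTL. All siBcat libraries were above all others, and GSK126 and siCTL overlapped. The log2 fold change was 1.26 for Parp14 (SE 0.22, adjusted p = 0.00186, edgeR), 0.84 for Parp9 (SE 0.14) and 0.80 for the ubiquitin ligase Dtx3l (SE 0.15), whose product forms a complex with Parp9. Parp9 (35938470 to 35972605, plus strand) and Dtx3l (35926511 to 35939151, minus strand) overlap at their starts on chromosome 16, and reads in the overlap cannot be told apart unless the counting used strand, which is not given in the sources used here.

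Of 6 other interferon-induced proteins, 5 were higher in siBcat. Ifi44, an interferon-induced cytoplasmic protein gene (chromosome 3, 151730922 to 151749960), had 14.8, 3.68 and 3.90 CPM in siBcat, 0.389, 0.459 and 0.621 CPM in GSK126 and 0.362, 0.529 and 0.637 CPM in siCTL. Its siBcat libraries were all far above the other 6, which overlapped each other, and its log2 fold change was 3.85 (SE 0.63, adjusted p = 0.00120, edgeR). Xaf1, which antagonises the apoptosis inhibitor Xiap (chromosome 11, 72301629 to 72313733), had 7.16, 2.63 and 4.07 CPM in siBcat, 1.02, 0.873 and 1.51 CPM in GSK126 and 0.769, 0.661 and 0.764 CPM in siCTL. Rtp4, a chaperone that helps receptors reach the surface (chromosome 16, 23520291 to 23614222), had 21.3, 10.1 and 12.6 CPM in siBcat, 2.51, 3.03 and 4.23 CPM in GSK126 and 1.81, 1.94 and 3.10 CPM in siCTL. No siBcat value of Xaf1 or Rtp4 overlapped with another group. The log2 fold change was 2.65 for Xaf1 (SE 0.36, adjusted p = 0.000210, edgeR) and 2.67 for Rtp4 (SE 0.33, adjusted p = 0.000222, edgeR).

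Lgals3bp, a secreted glycoprotein that binds galectins (chromosome 11, 118392751 to 118402092), had 553, 418 and 458 CPM in siBcat, 359, 366 and 346 CPM in GSK126 and 272, 275 and 267 CPM in siCTL. The 3 groups did not overlap, and the log2 fold change of siBcat against siCTL was 0.81 (SE 0.08, adjusted p = 9.54e-06, edgeR). Ifi27l2a (chromosome 12, 103442167 to 103443680) was scarce, with 78, 52 and 40 counts in siBcat, 36, 24 and 70 counts in GSK126 and 2, 0 and 10 counts in siCTL. Both siBcat and GSK126 lay above siCTL and overlapped each other, and the log2 fold change of siBcat against siCTL was 3.81 (SE 0.69, adjusted p = 0.00116, edgeR). Ifi35 had a log2 fold change of 0.43 (SE 0.17, adjusted p = 0.0793, edgeR) and was not called, but it passed in DESeq2 (adjusted p = 0.0238) and without siBcat replicate 2 (adjusted p = 0.0361, edgeR).

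The interferon-inducible GTPases, a group that takes part in defence against intracellular pathogens, were higher in siBcat in 4 of 5 cases. Gbp3, a guanylate-binding protein (chromosome 3, 142560026 to 142573209), had 7.30, 2.06 and 2.67 CPM in siBcat, 0.707, 1.01 and 1.20 CPM in GSK126 and 0.226, 0.485 and 0.764 CPM in siCTL. Every siBcat library was above every other, and the log2 fold change was 3.00 (SE 0.57, adjusted p = 0.00289, edgeR). Its neighbour Gbp2 had 3.60, 2.06 and 2.06 CPM in siBcat, 2.76, 2.02 and 2.06 CPM in GSK126 and 1.40, 1.63 and 2.76 CPM in siCTL, and did not pass the threshold (0.40, SE 0.28, adjusted p = 0.303, edgeR). Of the immunity-related GTPases, Iigp1 rose by 2.33 (SE 0.48), Igtp by 1.21 (SE 0.22) and Irgm1 by 0.72 (SE 0.11). Igtp shares 11.8% of its 50-base stretches with Irgm2, and for Herc6, Rtp4 and Ifitm3 12.5%, 11.6% and 10.0% of these stretches also occur in other genes, so a part of each count is uncertain.

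**Figure D2:**
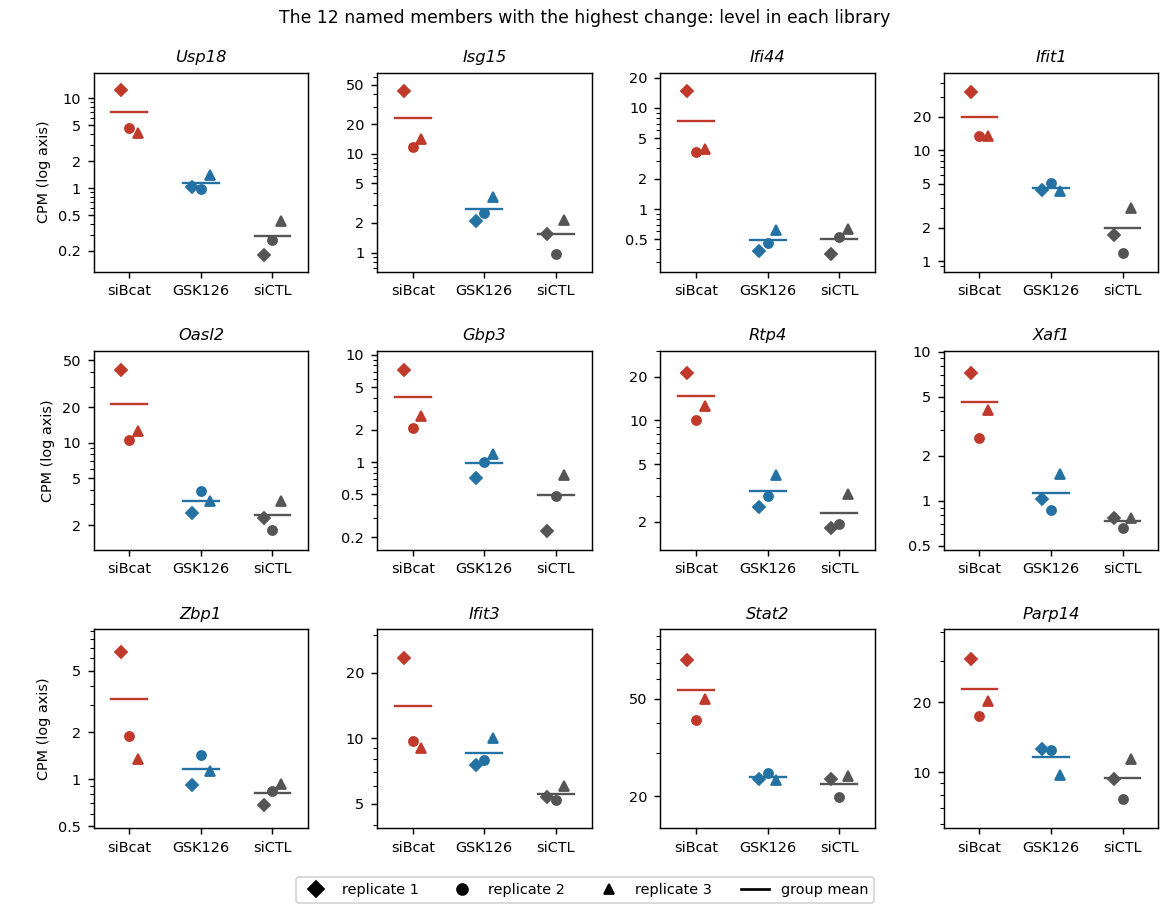
CPM on a log axis in each library for the 12 members with the highest log2 fold change in siBcat against siCTL among called members averaging 2 CPM or more over the 6 libraries of both groups. Points are libraries and lines are group means. In each panel siBcat replicate 1 is the highest of the 9 libraries, for example at 43.7 CPM for Isg15, where the other siBcat libraries stand at 11.7 and 14.0 CPM.

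The siBcat libraries differed in how far the members were raised. That replicate 1 was highest was known from these data beforehand, so the counts below describe this pattern and are no test of it. Replicate 1 was the highest of its group in 32 of the 34 tested members, whereas over all genes tested it was the highest in 35.7%. The exceptions were Irf1 and Ifitm3, both highest in replicate 3. The median member stood 1.70 log2 units above the siCTL mean in replicate 1, 0.89 above it in replicate 2 and 0.95 above it in replicate 3, and for all genes these medians were 0.007, 0.006 and 0.005. Replicate 1 exceeded the mean of replicates 2 and 3 by a median of 1.76-fold over the members, from 0.922-fold for Ifitm3 to 4.03-fold for Zbp1. It did so by 2-fold or more in 14 members, against 1.31% of all genes. Those 14 were Zbp1, Ifi44, Oasl2, Isg15, Gbp3, Bst2, Usp18, Ifit1, Ifit3, Rsad2, Oas3, Iigp1, Xaf1 and Cmpk2.

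Without replicate 1 the members were still raised in most cases. Replicates 2 and 3 both lay above all siCTL libraries in 29 of the 34 members, against 31.4% of all genes. When replicate 1 was left out of the fit, siBcat had 27 members above siCTL past the threshold and 2 below it, against 12.9% and 14.6% of all genes in that fit, Oas3 being the only one of the 30 called members to lose its call, and the median log2 fold change was 0.96. As a ratio of log2 fold changes against siCTL, only Ifit3 and Zbp1 among called members shrank by more than 1.5 times, to 0.75 and 0.99. In log2 units, strongly raised members also fell: Ifi44 from 3.85 to 2.87, Oasl2 from 3.12 to 2.24. Isg15 went from 3.89 to 3.04 and Gbp3 from 3.00 to 2.24. Ifitm3 was the only member called higher whose value rose, from 0.50 to 0.53. The siCTL libraries were also uneven, since siCTL replicate 3 was the highest of its group in 24 of the 34 members, against 37.0% of all genes. What set siBcat replicate 1 or siCTL replicate 3 apart was not tested.

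**Figure D3:**
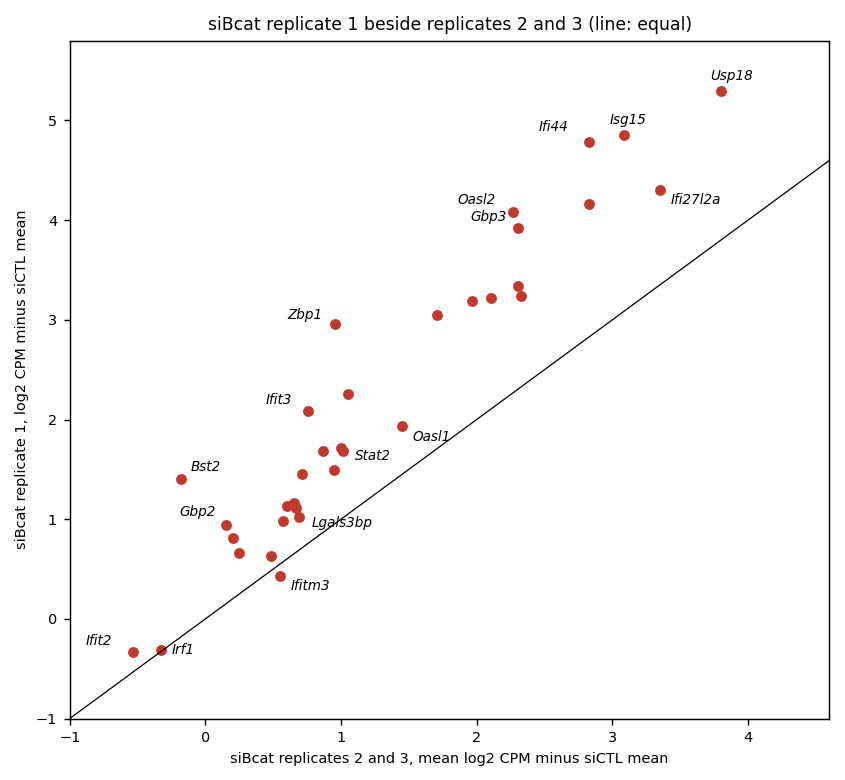
Each of the 34 tested members by its level in siBcat replicate 1 (vertical) and its mean level in siBcat replicates 2 and 3 (horizontal), both as log2 CPM minus the siCTL mean, with the line of equal levels. Most points lie above the line, Bst2 has a value of 1.41 in replicate 1 and is below 0 in the other replicates, and Ifitm3 and Ifit2 lie near the line.

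GSK126 was set against the same siCTL libraries to ask which transcripts change with the inhibitor. Only Ifi27l2a and Lgals3bp among the 34 members were higher in GSK126 and 0 were lower, against 14.3% and 10.7% of all genes in edgeR's quasi-likelihood test. At an unadjusted p below 0.05 the counts were 6 and 0 of the members, against 20.5% and 17.5% of all genes, and DESeq2 called 6 higher and 0 lower, against 14.8% and 13.6% of all genes. The median log2 fold change was 0.34, against 0.006 over all genes. All GSK126 libraries lay above all siCTL libraries in 11 members, against 21.9% of all genes, and below them in 0 members, against 20.2% of all genes. The 11 were Usp18, Herc6, Ifit1, Ifit3, Cmpk2, Bst2, Ifi27l2a, Xaf1, Lgals3bp, Iigp1 and Igtp.

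Ifi27l2a, at 24 to 70 counts in GSK126 and 0 to 10 counts in siCTL, had a log2 fold change of 3.25 in GSK126 (SE 0.71, adjusted p = 0.00647, edgeR), and of 5.09 without siCTL replicate 3, which held 10 counts where the other siCTL libraries held 2 and 0. Lgals3bp rose by 0.39 (SE 0.08, adjusted p = 0.00392, edgeR), with adjusted p = 0.0521 without GSK126 replicate 3. Usp18 had a log2 fold change of 1.94 (SE 0.65, adjusted p = 0.0553, edgeR) and passed under 8 of 17 alternatives, over which the adjusted p ran from 0.00093 to 0.254. The values for Ifit1 were 1.20 (SE 0.48, adjusted p = 0.104) and for Iigp1 1.11 (SE 0.51, adjusted p = 0.137), both in edgeR. Stat2 (0.09, SE 0.18), Irf9 (0.11, SE 0.16) and Dtx3l (0.00, SE 0.15) were near 0, and Oas3 had the lowest value at -0.35 (SE 0.59). The number of members called higher depended on single libraries, some of them of siBcat, a group outside this comparison though inside the fit. Without siBcat replicate 1 it was 8, with Bst2, Cmpk2, Ifit1, Ifit3, Igtp and Usp18 added. Without siBcat replicate 2 or without siBcat replicate 3 it was 3, and without GSK126 replicate 3 it was 1.

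**Figure D4:**
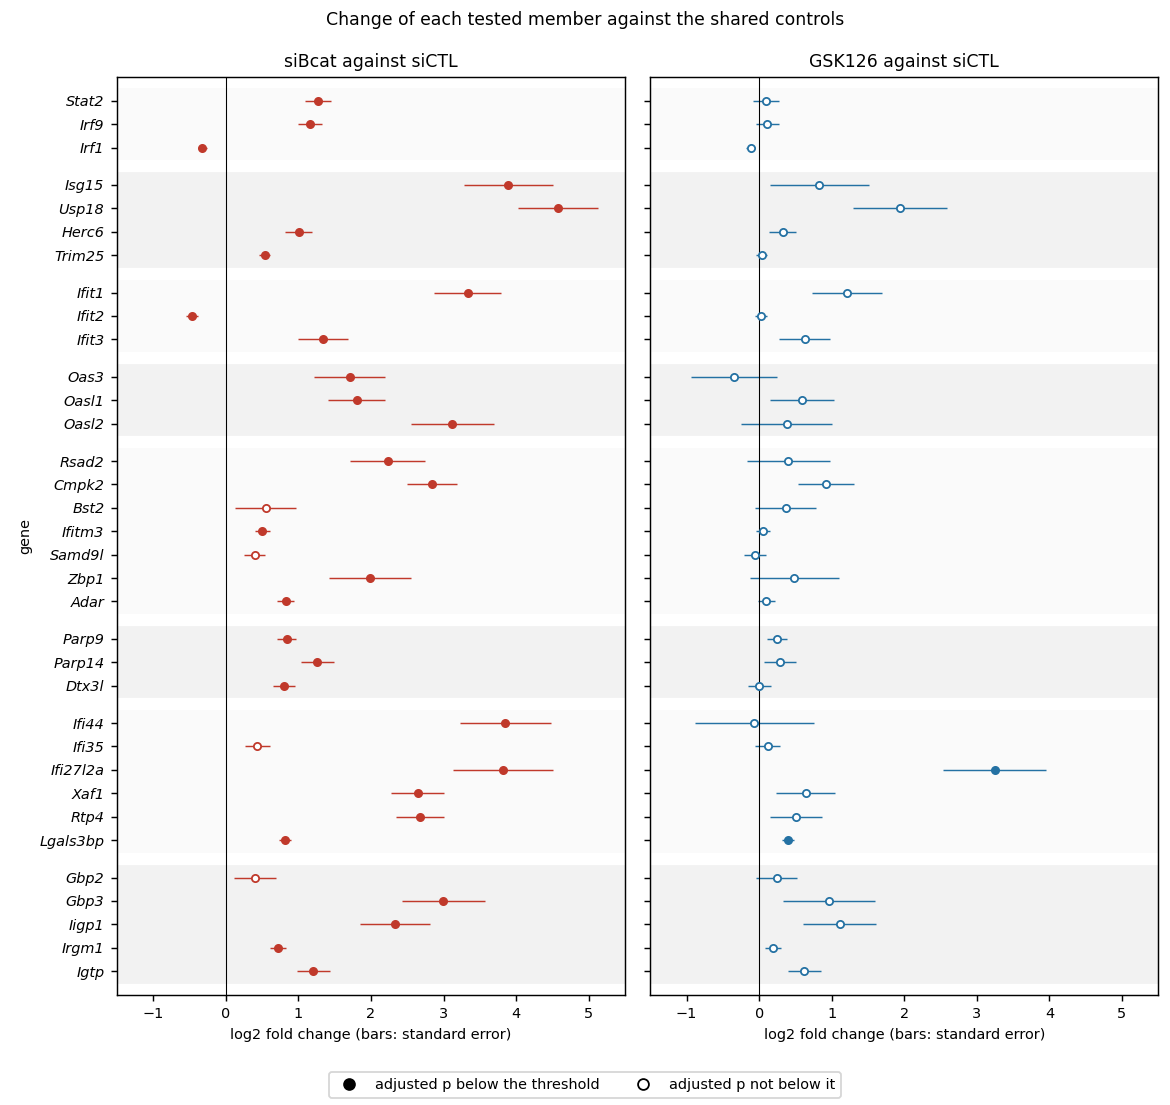
Log2 fold change with its standard error for each of the 34 tested members, siBcat against siCTL on the left and GSK126 against siCTL on the right, in rows grouped by role. Filled points passed the edgeR threshold and open points did not. In the left panel 28 filled points are above 0 and 2 below it, and in the right panel Ifi27l2a and Lgals3bp are filled. Both panels share the siCTL libraries.

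Set directly against GSK126, siBcat had 27 members higher and 2 lower, with 19.3% and 21.9% of all genes called in these directions (edgeR). All siBcat libraries lay above all GSK126 libraries in 26 members, against 25.3% of all genes, and below them in Irf1 and Ifit2, against 27.2% of all genes. The median log2 fold change was 0.89, against -0.01 over all genes. Differences were widest for Ifi44 (3.91, SE 0.62), Isg15 (3.06, SE 0.56), Oasl2 (2.74, SE 0.55) and Usp18 (2.63, SE 0.44). Ifit3 (0.72, SE 0.33), Bst2 (0.18, SE 0.41), Ifi35 (0.31, SE 0.17), Ifi27l2a (0.57, SE 0.48) and Gbp2 (0.16, SE 0.28) did not pass the threshold. Zbp1 passed narrowly (adjusted p = 0.0499, edgeR) and lost its call under 12 of 17 alternatives, Igtp (0.0428) under 10 and Iigp1 (0.0426) under 6. Without siBcat replicate 1 the log2 fold changes of Zbp1, Iigp1 and Igtp were 0.51, 0.70 and 0.27 and, like those of Oasl1 and Samd9l, no longer passed, while Herc6 at 0.39 and Gbp3 at 1.29 still did. Without GSK126 replicate 3 the number higher was 20, against 27 with all libraries.

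Other genes of the pathway were taken from lists written from knowledge of it, with earlier results of these data also known. Their counts beside those of all genes are therefore a description and no test. Of 17 interferon ligand genes in the table, 15 were at 0 in all 9 libraries, and the highest count of any was 4, for Ifnz in GSK126 replicate 1, which is under the 6 counts that a 0 allows. A rise of these 17 interferon transcripts was therefore not detectable at this depth on day 4. Of the 21 ligand genes listed, only these 17 could be examined. Of the 37 other pathway genes reported that passed the filter, 12 were higher and 6 lower in siBcat, and 5 were higher and 6 lower in GSK126, both against siCTL (edgeR). The shares of all genes tested were 17.7% and 17.5% in siBcat and 14.3% and 10.7% in GSK126, so the counts lower in siBcat and higher in GSK126 were near the background.

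None of 5 receptor chains was higher in siBcat and 3 were lower. Ifnar1, the type I receptor chain, had 78.4, 78.2 and 74.9 CPM in siBcat, 92.4, 95.7 and 84.0 CPM in GSK126 and 97.1, 98.0 and 98.0 CPM in siCTL, a log2 fold change of -0.34 in siBcat against siCTL (SE 0.06, adjusted p = 0.000448, edgeR). The type II receptor chains Ifngr1 and Ifngr2 were lower in siBcat by log2 fold changes of -0.34 each. In GSK126 Ifngr1 was higher (0.32, SE 0.05) and Ifngr2 lower (-0.15, SE 0.05). Stat3, which relays cytokines of the interleukin 6 family, rose by 0.28 in siBcat. The kinases Jak1, Jak2 and Tyk2 were lower in GSK126 than in siCTL (-0.25, -0.18 and -0.31), and their values of -0.04, -0.14 and -0.08 in siBcat did not pass the threshold.

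Irf7, the factor that amplifies type I interferon production and is itself interferon-induced, had 31.4, 10.6 and 14.5 CPM in siBcat, 3.85, 3.49 and 4.73 CPM in GSK126 and 2.76, 3.13 and 3.78 CPM in siCTL. Like the members it was highest in siBcat replicate 1, and it rose by 2.54 in siBcat (SE 0.39, adjusted p = 0.000907, edgeR). Of 11 nucleic acid sensors and adaptors, 6 were higher in siBcat: the RNA helicases Dhx58 (2.60, SE 0.32), Ifih1 (0.81, SE 0.15) and Ddx58 (0.73, SE 0.14), the kinase Eif2ak2 (0.54), the endosomal receptor Tlr3 (0.52) and the DNA-pathway adaptor Tmem173 (0.39). The kinase Ikbke was lower (-0.37).

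Among 10 negative regulators, Pias4, Ptpn11 and Irf2bp2 were higher in siBcat and Cish, a cytokine-induced inhibitor of Stat signalling, was lower (-0.95, SE 0.10). In GSK126 Cish was higher (0.73, SE 0.10), as was the Jak inhibitor Socs1 (0.71, SE 0.22). The other factors past the threshold in GSK126 were Irf5 (0.53) and Myd88 (0.24), both higher, and Tmem173 (-0.27) and Tbk1 (-0.19), both lower. In siBcat Irf4 was lower (-0.47). Of the interferon-induced chemokines, Cxcl10 rose in siBcat (1.52, SE 0.43, adjusted p = 0.0149, edgeR), at 0.525 to 1.17 CPM in siBcat and 0.255 to 0.309 CPM in siCTL.

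**Figure D5:**
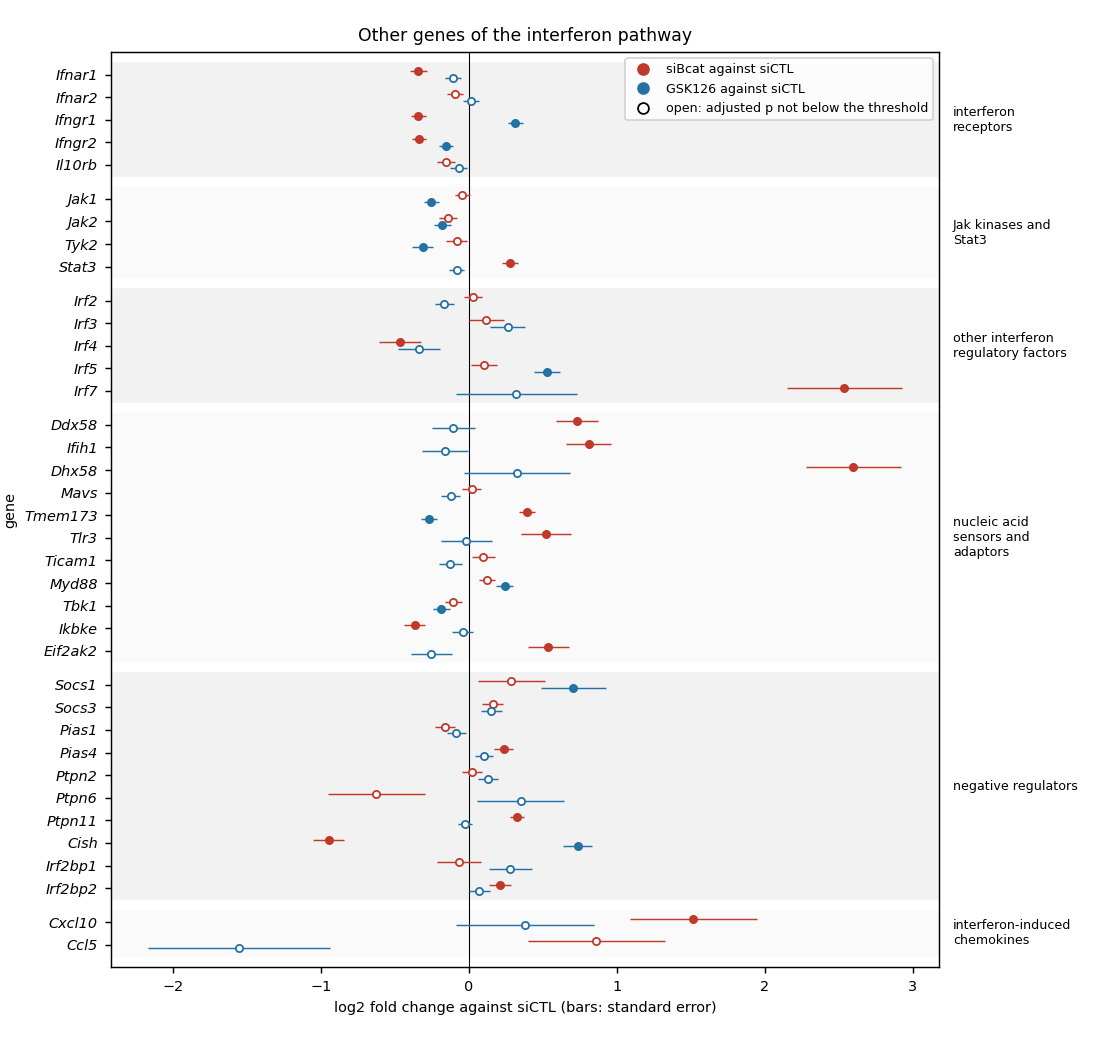
Log2 fold change against siCTL with its standard error for the 37 other pathway genes that passed the filter, with siBcat above GSK126 in each row. Filled points passed the edgeR threshold. Irf7 at 2.54 and Dhx58 at 2.60 are the highest siBcat points, Cish at -0.95 is the lowest siBcat point, and the 5 receptor chains are all below 0 in siBcat.

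The level of the members per length was compared with the authors' RPKM. Ifitm3 was first in each group, at 372 ± 21.7 RPKM in siBcat, 286 ± 13.9 RPKM in GSK126 and 270 ± 49.6 RPKM in siCTL (SD, n = 3 each). Lgals3bp was second in each group, at 194 ± 27.4 RPKM in siBcat, 152 ± 1.68 RPKM in GSK126 and 113 ± 0.954 RPKM in siCTL (SD, n = 3 each). At least 10 RPKM was reached by 10 members in siBcat, 6 in GSK126 and 6 in siCTL, and at least 1 RPKM by 28 in siBcat, 21 in GSK126 and 18 in siCTL. Isg15 had rank 5 of the 38 in siBcat, with a mean of 26.9 RPKM and single libraries from 13.7 to 50.7 RPKM, and was not among the first 10 in GSK126 or siCTL. Ifit2 had rank 5 in both GSK126 and siCTL, with means of 12.5 and 11.97 RPKM, and was not among the first 10 in siBcat.

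Members with and without the first promoter pattern were set side by side. In siBcat against siCTL, 9 of 11 tested members with the response element core were higher, with a median log2 fold change of 1.34, and 12 of 16 tested members without it were higher and 2 lower, with a median of 0.82 (edgeR). Over all genes tested, 17.7% were higher and 17.5% lower, with a median of 0.002. The members were chosen with earlier results of these data known, so a larger share of higher genes in both sets is no test. Oas3, among the 9 higher with the pattern, passed the filter only through its siBcat libraries. The values ranged from 0.40 to 3.89 with the pattern and from -0.47 to 3.85 without it, so the ranges overlapped. Oasl2, Ifi44 and Xaf1, all among the highest, have no match in the window searched. Bst2 and Gbp2 have it and were not called. The 7 tested members with no promoter in the table, Usp18 among them, were all higher, with a median of 2.33, so the comparison leaves out some of the most raised members. No test was made of this difference.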

How the data were processed

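RNA was sequenced from 3 siBcat, 3 GSK126 and 3 siCTL cultures. The submitters' processing notes name TopHat2 2.0.6, HTSeq, bcl2fastq and the build mm10, with settings and strandedness not given in the sources used here. Raw counts were deposited for each gene, beside RPKM values in which the authors scaled by a length in bases (per the file headers); RPKM served only to compare levels between genes. Another 6 columns of per-sample values, 3 of counts and 3 of RPKM, were not used here, nor was the ChIP-seq part of the series.

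The members and lists were chosen with earlier results of these data known, and no p was computed over the list. Counts went into edgeR 4.0.16 under R 4.3.3 (TMM scaling, filterByExpr with a minimum count of 10 and a total of 15, a robust quasi-likelihood fit of all 9 libraries with no replicate block, Benjamini-Hochberg over 13240 genes, threshold 0.05). This left 10118 entries out. P-values measure the spread between the 3 cultures within each group, estimated per gene over all 9 libraries. Those of GSK126 against siCTL therefore also carry the spread of siBcat. The standard error of a log2 fold change was taken from its F value, and log2 CPM used a prior count of 2. Genes past the threshold in siBcat with a mean of at least 2 CPM over the 6 siBcat and siCTL libraries gave the 12 highest named members; all members lower in siBcat, called in GSK126 or in signalling were named too, with up to 4 others per role, smallest adjusted p first. Samd9l, Bst2 and the 4 members under the filter were named outside this rule, after their values were seen. Positions are GENCODE M21 on GRCm38. Shared sequence was counted as stretches of 50 bases found in transcripts of other genes. Alternatives were DESeq2 1.42.0, its size factors, scaling by library size only, a filter of 1 CPM in 3 libraries or no filter, only the 2 groups compared, a replicate block, counts divided by 2, and each library left out. The fit was also run on counts simulated from the spread of these data, with changes shared by all siBcat libraries. No library was made to deviate there, so that run cannot show how the fit handles siBcat replicate 1. Python 3.11.15, pandas 2.3.3 and matplotlib 3.10.9 made the tables and figures. No protein sequence was used here. Some genes of the pathway are not reported here.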

Additional observations from a re-analysis of the deposited data

How the results depend on the processing

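For siBcat against siCTL, 25 of the 30 calls held under every alternative run, and the others (Ifit3, Oas3, Rsad2, Ifitm3 and Zbp1) ended under at least 1. The number of members higher ran from 24 to 30 and the number lower stayed at 2. For GSK126 against siCTL the number higher was 2, but 3 with the filter of 1 CPM, 4 with library size only, 6 in DESeq2, 6 with only the 2 groups compared and 4 with a replicate block, and from 1 to 8 when 1 library was left out. The number lower was 0, and from 0 to 1 with 1 library left out: Irf1 passed without GSK126 replicate 3 (adjusted p = 0.0285, edgeR). For siBcat against GSK126, 18 of the 29 calls held under every alternative, and those of Zbp1, Igtp, Iigp1, Samd9l, Oasl1, Rsad2, Ifitm3, Parp9, Parp14, Gbp3 and Irf1 ended under at least 1. With a replicate block the calls of Zbp1 and Igtp ended (adjusted p = 0.0512 and 0.0628, edgeR). The number higher ran from 20 to 29, and the number lower was 2, and from 1 to 3 with 1 library left out.

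No pairing of libraries by replicate number was seen. Deviations of same-numbered libraries correlated at -0.0306 to 0.0688, and those of different-numbered libraries at -0.0742 to 0.0574. These values over all genes cannot settle whether same-numbered cultures were handled together. With a replicate block 28 members were higher and 2 lower in siBcat against siCTL, and 25 higher and 2 lower against GSK126.

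Directions of 12 uncalled values depended on a setting. The log2 fold change of Dtx3l in GSK126 against siCTL was -0.009 with DESeq2 size factors and in DESeq2, -0.008 with no filter, -0.014 with only the 2 groups compared and -0.011 with a replicate block. With 1 library left out, values in GSK126 against siCTL ran from -0.074 to 0.105 for Dtx3l, -0.007 to 0.14 for Stat2, -0.035 to 0.072 for Trim25, -0.024 to 0.098 for Ifit2, -0.647 to 0.037 for Oas3, -0.039 to 0.197 for Ifitm3, -0.165 to 0.08 for Samd9l, -0.284 to 0.126 for Ifi44 and -0.006 to 0.213 for Ifi35. For siBcat they ran from -0.193 to 0.833 for Bst2 against siCTL, and from -0.547 to 0.472 for Bst2 and -0.15 to 0.332 for Gbp2 against GSK126. The cause of these changes was not tested.

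The 4 members removed by the filter and those near the floor of 6 counts could not be followed in GSK126 or siCTL at this depth.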
